A study of Rattus norvegicus with 4 samples.

Results

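Cytosolic ribosomal proteins are the protein part of the ribosome that translates messenger RNA in the cytoplasm. The report covers 39 of their genes, 24 of the large subunit (Rpl genes) and 15 of the small subunit (Rps genes), taken by symbol from a list, with no cut on a measured value. Of these, 38 genes had at least 1 array probe whose transcript accession led to their symbol, out of 16581 genes with a symbol on the array. The exception was Rpl37, for which no probe was matched. The 38 genes were covered by 90 of 45598 probes, 56 for the large and 34 for the small subunit, printed in 406 spots per array.

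The RNA came from NR8383, a rat macrophage line derived from lung lavage, grown for 20 passages and exposed to NiZnFe2O4, a nickel, zinc and iron oxide by its formula, at 9.25 µg/mL for 4 h. Its 4 biological replicates, each hybridised to 1 one-colour array on the same slide, formed the only group. The design also names untreated cells, whose arrays were not analysed here, so no value shows an effect of the exposure and no test between groups was made. The levels describe a bulk culture, in which fewer cells and less RNA per cell cannot be told apart.

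In a ribosome the large subunit joins amino acids and the small subunit reads the message. Each holds 1 copy of nearly every ribosomal protein, so the genes are needed in matching amounts and their transcripts rank among the most abundant in growing cells. Most of these transcripts begin with a C followed by a run of C and T, the 5′ terminal oligopyrimidine tract (5′ TOP), through which the mTOR kinase and the RNA-binding protein LARP1 adjust their translation. Mammalian genomes also carry many processed pseudogenes of these genes, so a probe can bind near-identical transcripts and each level is uncertain in that respect.

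The bases around the annotated start of transcription show this shared feature and where it is missing. RefSeq sequence on the rat build GRCr8 was matched for 32 of the 39 genes, and the 30 bases from 15 before to 15 after the start were read on the transcribed strand, so that the 16th base is the start. The longest unbroken run of C and T is in capitals. The genes shown were chosen after their values were seen: Rps2, Rps3, Rpl22 and Rps24 had a wide and Rps12 and Rps16 a narrow spread between arrays, Rps10 and Rps18 had probes that disagreed, and Rpl5, Rpl10, Rpl11 and Rps6 have a known role.
Rps2 (chr10:14251833-14251862, plus strand): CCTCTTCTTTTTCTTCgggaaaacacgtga
Rps3 (chr1:163195762-163195791, minus strand): TTCCTTTCagcggcgcgcggcagcaagatg
Rps10 (chr20:5700730-5700759, minus strand): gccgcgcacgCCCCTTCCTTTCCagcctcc
Rps18 (chr20:4933730-4933759, plus strand): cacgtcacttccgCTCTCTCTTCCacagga
Rpl22 (chr5:168117946-168117975, plus strand): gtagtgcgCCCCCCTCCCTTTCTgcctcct
Rps24 (chr16:96502-96531, plus strand): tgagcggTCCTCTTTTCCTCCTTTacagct
Rpl10 (chrX:157205835-157205864, plus strand): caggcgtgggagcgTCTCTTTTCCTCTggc
Rpl5 (chr14:1995211-1995240, minus strand): aCTCTCTTTCCCacgtcgcttgcgtcctgg
Rpl11 (chr5:153560788-153560817, minus strand): ggggaCTTgaagcttgtttggtgctgggga
Rps6 (chr5:106420526-106420555, minus strand): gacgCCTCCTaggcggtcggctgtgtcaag
Rps12 (chr1:23500060-23500089, plus strand): gcacagaagCCCagcagagcgcttaaatac
Rps16 (chr1:92770643-92770672, plus strand): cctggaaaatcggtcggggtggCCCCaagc

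A run of at least 8 pyrimidines lay in this window for 22 of the 32 genes, 12 of 18 in the large and 10 of 14 in the small subunit, against 11.4% of all 33469 starts in the table. The median longest run was 10.5 bases in the 32 genes and 4 over all starts. A stricter pattern, C at the start and C or T at each of the next 4 bases, was met by 12 of the 32 (8 large, 4 small) and by 2.63% of all starts. The run of Rps2 ends at the annotated base and those of Rps3 and Rpl5 end before it, so these genes miss the stricter pattern. Rps10 and Rps24 miss it as well, because the annotated base within their run is a T. Rpl11, Rps12, Rps16 and Rps6 have no run of 8 in the window. The literal motif CTTTC, searched on the transcribed strand of the same window, was found in 13 of the 32 genes and in 3.59% of all starts. Annotated starts can lie some bases off the start used in these cells, which were not measured for it.

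Motifs were also searched on both strands of the 300 bases from 250 before to 50 after each start. CCGGAAG, the core of sites for ETS family factors, was present at 10 of the 32 genes (4 large, 6 small), Rps2, Rps10, Rps18 and Rpl11 among them, against 8.75% of all starts. AAGATGGC, part of the YY1 motif, was present at 2, both of the small subunit, and at 3.17% of all starts. TATAAA was present at 2 of the 32 and at 14.2% of all starts. CCGGAAG was also present at 21 of 64 genes of the mitochondrial ribosome, which serves the organelle's own translation, and a run of 8 pyrimidines at 9 of these 64. AAGATGGC was present at 15 of these 64 and TATAAA at 8. A match is a string of letters here and not a measured binding site.

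All 38 genes with a probe were detected. A gene counted as detected when at least 1 probe was well above background, by the scanner software's flag, on all 4 arrays. That held for 23 of 23 large subunit genes and 15 of 15 small subunit genes, against a background of 38.7% of all genes with a symbol. It held for each of their 90 probes as well, against 36.2% of probes with a symbol. No spot of these probes was saturated on any array, so the upper end of the signals was not clipped.

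Processed signals, the software's background-subtracted brightness in intensity units, of the brightest probe of each gene spanned 2527 to 78550 in the large subunit and 3460 to 81543 in the small subunit over all arrays. On replicates 1 to 4 the brightest probe of Rps10, a protein at the beak of the small subunit, read 81543, 67469, 55144 and 63063. Rpl27, a large subunit protein, read 4014, 3056, 2799 and 2527. These signals depend on probe sequence, so they set no order among genes, and they put neither subunit above the other. Before any scaling, 37 of the 38 genes were brightest on replicate 1, and 30 were dimmest on replicate 3 and 8 on replicate 4. Rps2 was the exception, with its highest signal on replicate 4.

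The summed signal of the 38 genes, 1 probe each, made up 11.5%, 11.2%, 10.3% and 11.0% of the summed signal of all genes with a symbol on replicates 1 to 4. The mean was 11.0% ± 0.51 (SD, n = 4), of which the large subunit gave 6.22% ± 0.35 and the small subunit 4.80% ± 0.21 (SD, n = 4 each). The share was lowest on replicate 3, in both subunits. This share needs no scaling between arrays.

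**Figure D1:**
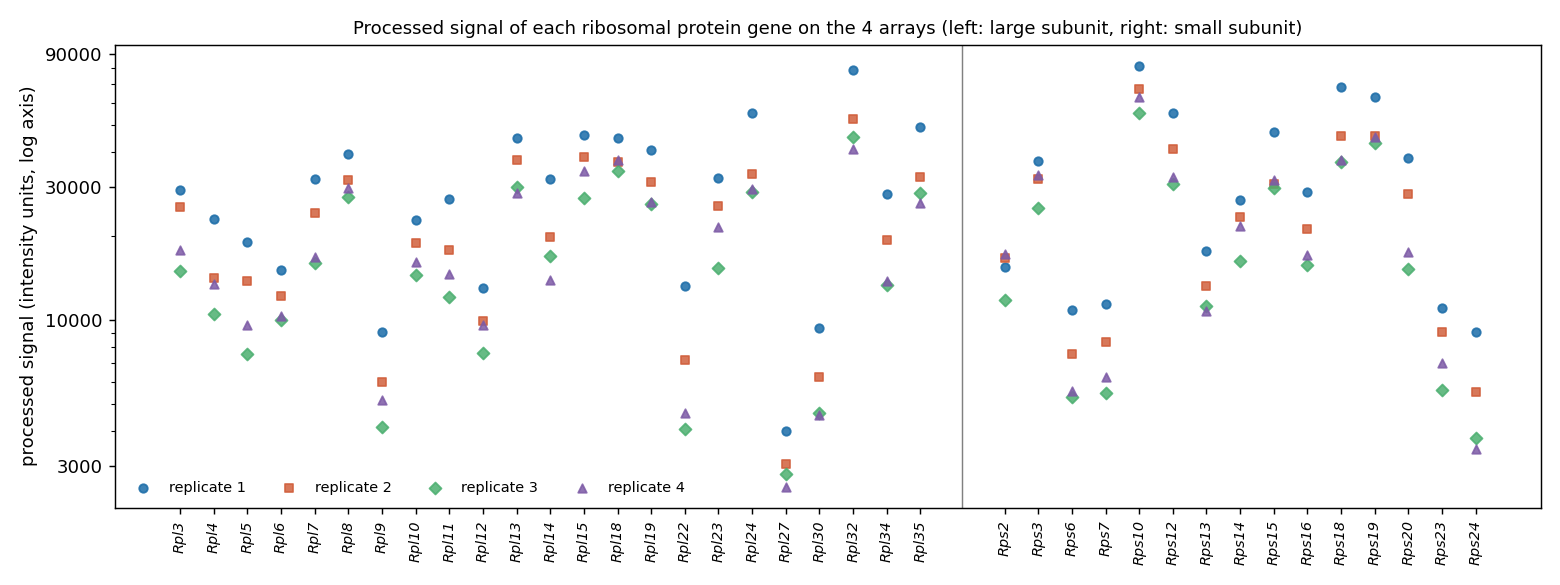
Processed signal in intensity units (log axis) of the brightest probe of each gene, with 1 marker per replicate and no averaging. Replicate 1 is highest for 37 of 38 genes before scaling, and Rps2 is the gene for which replicate 4, at 17181, lies above replicate 1, at 15493.

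Levels from here on are log2 processed signals minus the 75th percentile over all probes of the same array. This reduces the difference in brightness between arrays but does not remove it. Over all detected genes the median deviation from a gene's own mean was still -0.056, -0.008, 0.017 and 0.065 on replicates 1 to 4. Rpl3, which lies close to the peptidyl transferase centre, stood at 9.46, 9.59, 9.31 and 9.49 on replicates 1 to 4, with an SD of 0.12. Rpl10, one of the last proteins to join the large subunit, stood at 9.09, 9.17, 9.27 and 9.35, with an SD of 0.11. Its other probe did not rise in this way, at 8.91, 8.90, 8.89 and 8.86, with an SD of 0.022. Rpl4, which lines the tunnel through which the new protein leaves, stood at 9.11, 8.75, 8.80 and 9.08, with an SD of 0.19. For Rpl4 replicates 1 and 4 were the high pair and replicates 2 and 3 the low pair.

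Rpl5 and Rpl11 join the ribosome together with 5S ribosomal RNA, and outside it they bind MDM2, the protein that keeps p53 low. Rpl5 stood at 8.84, 8.72, 8.33 and 8.60 (mean 8.62 ± 0.22, SD, n = 4) and Rpl11 at 9.352, 9.092, 9.003 and 9.198 (mean 9.16 ± 0.15, SD, n = 4). Both were highest on replicate 1 and lowest on replicate 3. Mdm2 itself was detected on all 4 arrays, at 1.66 ± 0.13 (SD, n = 4).

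Among small subunit genes of known role, Rps6, the substrate of the S6 kinases downstream of mTOR, stood at 8.03, 7.85, 7.82 and 7.81 with an SD of 0.10. Replicate 1 was the highest and the other arrays lay close together. Rps19, the gene most often mutated in Diamond-Blackfan anaemia, stood at 10.56, 10.45, 10.83 and 10.84 (mean 10.67 ± 0.20, SD, n = 4), with replicates 3 and 4 above the other pair. Rps14, whose loss on one chromosome contributes to the 5q- syndrome, stood at 9.33, 9.48, 9.44 and 9.77 (mean 9.51 ± 0.19, SD, n = 4), with replicate 4 above the rest. The middle of its 3 probes was also highest on replicate 4, at 9.01, and the dimmest on replicate 2, at 8.72.

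The median SD between the 4 cultures was 0.15 log2 units in the large subunit (range 0.087 to 0.39) and 0.17 in the small subunit (range 0.038 to 0.37), beside 0.23 over all 6418 detected genes. Of the 38 genes 32 lay below that overall median, 21 of 23 in the large and 11 of 15 in the small subunit. None had an SD above 0.5, against 5.73% of detected genes. This lower spread was not found under every processing. The number of the 38 below the median of all detected genes was 28 after quantile normalization, 32 when the percentile came from detected probes, 33 with the local trend removed and 33 when a gene's probes were averaged. It was 17 without scaling, and 11 with normexp background correction, where the medians were 0.30 in the large and 0.26 in the small subunit and 0.19 over all genes. The overall set was not matched to the 38 genes on signal.

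With this scaling the smallest SDs were those of Rps12 and Rps16 in the small subunit and Rpl7 and Rpl13 in the large one. Rps12, a protein of the small subunit head region, stood at 10.37, 10.29, 10.35 and 10.36, an SD of 0.038. Rps16, whose tail reaches the transfer RNA bound in the P site, stood at 9.43, 9.34, 9.39 and 9.43, an SD of 0.046. Its other probe had an SD of 0.13. Rpl7 stood at 9.58, 9.53, 9.40 and 9.41, an SD of 0.087. Rpl13 stood at 10.07, 10.16, 10.31 and 10.16, an SD of 0.10, and Rps7 at 8.10, 7.99, 7.86 and 7.97, an SD of 0.097. Rpl19, which reaches across to the small subunit, stood at 9.93, 9.89, 10.12 and 10.07, an SD of 0.11. No array was highest for all of these genes. The order depended on the scaling: with quantile normalization the SD was 0.15 for Rps12, 0.12 for Rps16 and 0.21 for Rpl7, above those of Rpl10 (0.059), Rpl19 (0.062) and Rps15 (0.089). With the percentile over detected probes Rpl10 (0.048) and Rpl19 (0.057) lay below Rpl13 (0.085) and Rpl7 (0.15).

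The widest spread belonged to Rpl22 and Rps2. Rpl22, an RNA-binding protein that cells can lack because its paralog Rpl22l1 can stand in, stood at 8.32, 7.78, 7.44 and 7.54 (mean 7.77 ± 0.39, SD, n = 4). Replicate 1 lay above the others. Without replicate 1 the SD of Rpl22 was 0.048, read from another of its probes, which was then the brightest. Rpl22l1 stood at 4.44, 4.60, 4.38 and 4.76, with replicate 4 the highest. Rps2, which lines the channel where messenger RNA enters, stood at 8.54, 8.99, 8.97 and 9.44 (mean 8.98 ± 0.37, SD, n = 4), lowest on replicate 1 and highest on replicate 4.

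Wider spread was also found for Rps24 (SD 0.27), Rpl18 (0.25), Rps3 (0.25), Rps20 (0.24), Rpl14 (0.21) and Rps15 (0.21). Rps24, another gene mutated in Diamond-Blackfan anaemia, stood at 7.77, 7.40, 7.32 and 7.12, highest on replicate 1. Rps3, at the entry of the messenger RNA channel and also active in DNA repair, stood at 9.80, 9.93, 10.06 and 10.38, highest on replicate 4. Rpl18 stood at 10.07, 10.14, 10.50 and 10.56, with replicates 3 and 4 above the other pair. Rps20 stood at 9.83, 9.75, 9.33 and 9.46, with replicates 1 and 2 above the other pair. Rpl14, a large subunit protein, stood at 9.59, 9.25, 9.49 and 9.13, and Rps15, of the small subunit head, at 10.15, 9.87, 10.30 and 10.32. The dimmer Rps15 probe was lowest on replicate 1, at 8.09, 8.18, 8.41 and 8.53. These genes did not share 1 order of the arrays. Single arrays carried much of several spreads. The SD was 0.14 for Rps24 without replicate 1, 0.13 for Rps3 without replicate 4 and 0.093 for the brighter Rps15 probe without replicate 2. The same held for genes named before, with 0.097 for Rpl11 and 0.020 for Rps6 without replicate 1, 0.072 for Rpl3, 0.12 for Rpl5 and 0.053 for Rpl13 without replicate 3, and 0.077 for Rps14 without replicate 4. Without replicate 2 the SD was 0.0093 for Rps12 and 0.027 for Rps16. For Rpl18 it was 0.15 with quantile normalization and 0.058 with normexp.

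The other 16 genes, 12 of the large and 4 of the small subunit, had SDs from 0.099 to 0.18 with a median of 0.14. Their mean levels lay between 6.67 and 11.11. The large subunit genes were Rpl6, Rpl8, Rpl9, Rpl12, Rpl15, Rpl23, Rpl24, Rpl27, Rpl30, Rpl32, Rpl34 and Rpl35, and the small subunit genes Rps10, Rps13, Rps18 and Rps23. The scaled level was lowest on replicate 1 for 4 of them, on replicate 2 for 7, on replicate 3 for 3 and on replicate 4 for 2.

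The scaling of an array moves all its genes together, so each gene was also set against the mean of the 38 genes on the same array. The deviation of a gene from its own mean on this basis is the same without scaling and with either percentile. Rps2 deviated by -0.47, 0.08, 0.00 and 0.40 log2 units on replicates 1 to 4, so that replicate 4 stood 0.88 above replicate 1. For Rps3 this step was 0.56 and for Rpl18 0.46. In the opposite direction it was -0.80 for Rpl22, -0.66 for Rps24 and -0.48 for Rpl14. These 6 genes were picked as the extremes of this step, so its size is a description. After quantile normalization, after normexp, with the local trend removed or with a gene's probes averaged, the step lay between 0.80 and 0.90 for Rps2 and between -0.82 and -0.41 for Rpl22. It did not hold in each single probe: it was 0.09 for the dimmest probe of Rpl22 and -0.04 for the dimmest of Rpl14.

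**Figure D2:**
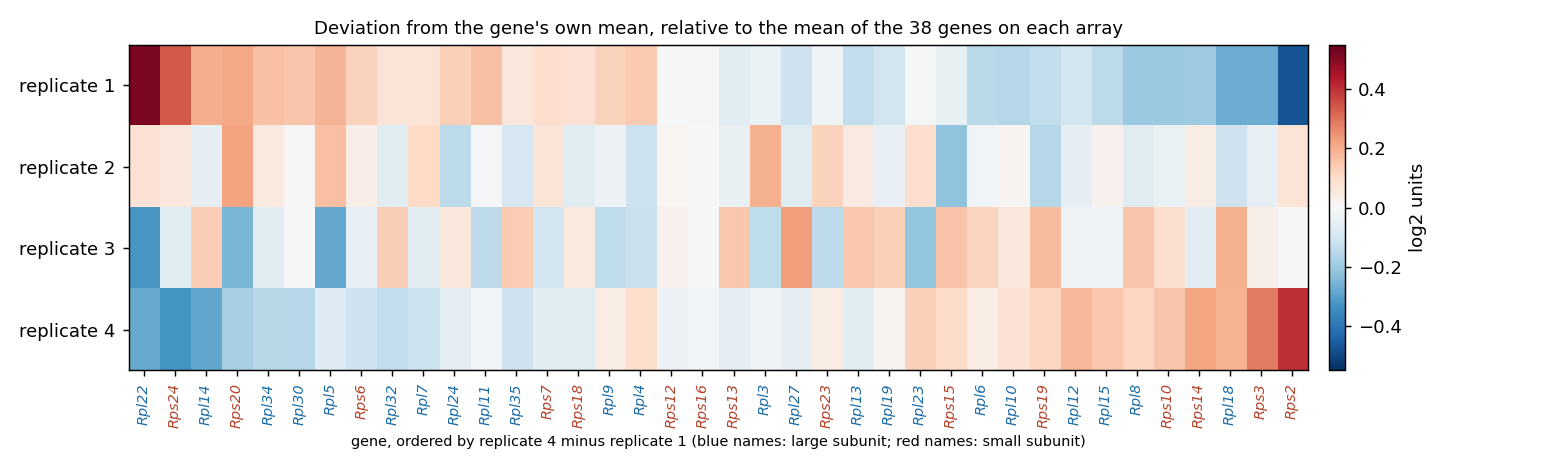
Colour gives the log2 deviation of each gene from its own mean after subtracting the mean of the 38 genes on that array, with replicates in rows and genes in columns ordered by replicate 4 minus replicate 1. Each gene is read from its brightest probe. Rpl22 and Rps24 stand at one end, high on replicate 1, Rps2 and Rps3 at the other, and Rps12 and Rps16 lie near 0 on all 4 arrays.

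Large and small subunit were then compared as groups. The mean of the 23 large subunit genes stood at 9.25, 9.13, 9.19 and 9.23 on replicates 1 to 4 and that of the 15 small subunit genes at 9.36, 9.30, 9.35 and 9.44. Both means were lowest on replicate 2. Their SDs between arrays were 0.053 and 0.059, beside 0.050 for the mean of all detected genes. The large minus small difference was -0.10, -0.17, -0.17 and -0.22, an SD of 0.047 between arrays. Its absolute size depends on the probes and is not read, but its change over arrays does not depend on scaling by a percentile, and it spanned 0.11 log2 units over the arrays. This span was 0.069 with normexp, 0.13 with quantile normalization, 0.13 with the local trend removed and 0.14 when a gene's probes were averaged. The lowest place of replicate 2 was kept with the local trend removed and with averaged probes. It was not kept without scaling, with the percentile over detected probes, with normexp background correction or with quantile normalization, where the large subunit mean deviated by 0.08 on replicate 2 and by -0.13 on replicate 3.

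The choice of probe, and with it the set of genes, bears on that difference. Of the 90 probes 35 were printed in 10 spots, for 13 large and 10 small subunit genes, and 54 in 1 spot. With probes in 10 spots alone, the large minus small difference deviated by 0.21, -0.01, 0.00 and -0.20 from its mean, an SD of 0.17 in place of 0.047 and a span of 0.41 in place of 0.11. With probes in 1 spot alone, for 20 large and 12 small subunit genes, it deviated by 0.11, 0.00, -0.01 and -0.10, an SD of 0.087. Both choices change the probes and leave out genes, and these 2 effects were not separated. In each of these choices the large subunit stood relatively highest on replicate 1 and the small subunit on replicate 4, as with the brightest probes.

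Spots of the same probe showed how much of the spread arose within an array. Over the 35 probes in 10 spots the SD among spots of an array had a median of 0.068 log2 units (range 0.049 to 0.13), so that the mean of the spots had a standard error of 0.022. Between arrays the same probes had a median SD of 0.15, and for 33 of the 35 it was larger than the SD among their spots. The exceptions were the brighter Rps16 probe and 1 of the Rps14 probes. The 939 detected probes in 10 spots that belong to no member had a median SD between arrays of 0.17. Differences between arrays were thus larger than the error among spots, though labelling and hybridisation differ between arrays as the cultures do, and their parts cannot be told apart.

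**Figure D3:**
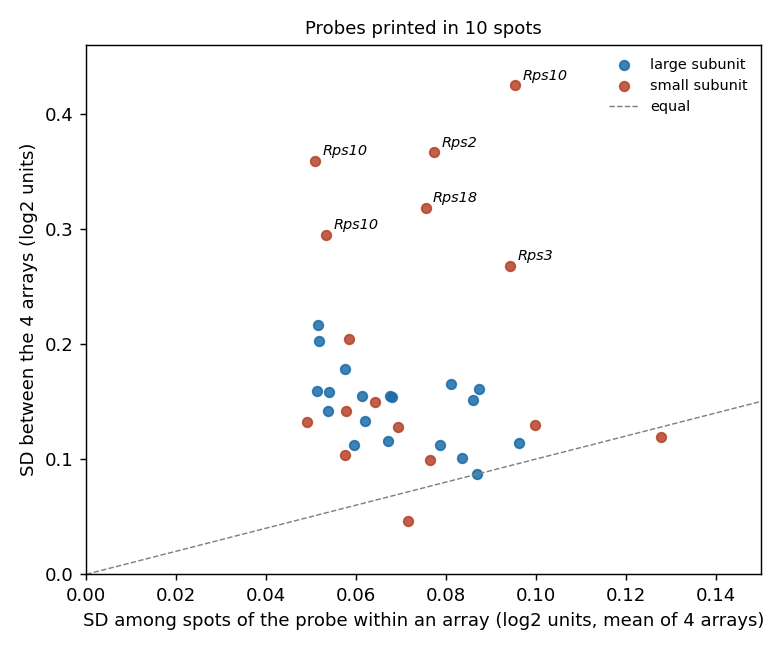
Each point is 1 of the 35 probes printed in 10 spots, with the SD among its spots within an array on the horizontal axis and the SD of its level between the 4 arrays on the vertical axis, both in log2 units. Of the 35 points 33 lie above the dashed line of equality, and those of Rps10, Rps2, Rps18 and Rps3 lie highest.

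Several probes of a gene gave a second reading in 27 of the 38 genes. Their levels differed by a median of 1.60 log2 units between the brightest and the dimmest probe. The gap was widest for Rpl15, whose probes read 46186, 38225, 27449 and 34153 against 57.0, 48.7, 26.8 and 37.7 intensity units, a gap of 9.78 log2 units, and both were well above background on all arrays. Rpl7, a large subunit protein, had 5 probes with mean levels between 8.52 and 9.48 and a sixth at 3.07. Which transcripts the dim probes bind was not tested.

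Probes of a gene could still agree on how it varied. The log2 difference between a pair of probes was followed over the 4 arrays, and its SD is near 0 when both probes move alike. The largest such SD of a gene had a median of 0.12, stayed below 0.1 in 11 of the 27 genes and reached 0.2 in 4. For Rps2 it was 0.065: relative to the 38 genes, one probe deviated by -0.47 on replicate 1 and 0.40 on replicate 4 and the other by -0.51 and 0.50. For Rps3 it was 0.067, with -0.27 and 0.29 for one probe and -0.34 and 0.29 for the other. The low reading on replicate 1 and the high reading on replicate 4 were thus found by both probes of each gene.

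The 4 genes whose probes moved apart were Rps18, Rpl22, Rps10 and Rpl14. For Rps18, a protein of the small subunit head, the dimmest of 3 probes deviated by -0.32 on replicate 1 and 0.40 on replicate 4, while the brightest deviated by 0.08 and -0.07. In Rps10 the probes moved in the same direction but by different amounts. Its 3 dim probes, each in 10 spots, deviated by -0.47, -0.32 and -0.39 on replicate 1 and by 0.53, 0.35 and 0.45 on replicate 4. Its 2 bright probes, each in 1 spot, deviated by -0.21 and -0.22 on replicate 1 and by 0.15 and 0.01 on replicate 4. For Rpl22 the brightest probe deviated by 0.52 on replicate 1, the next 2 by 0.25 and 0.28 and the dimmest by 0.03. For Rpl14 the 2 brighter probes deviated by 0.20 and 0.18 on replicate 1 and by -0.28 and -0.32 on replicate 4, and the dimmest by -0.10 and -0.14. The SD of the Rpl14 level was 0.21 from its brightest and 0.11 from its dimmest probe. The spread given for Rpl22, Rps10, Rps18 and Rpl14 thus depends on the probe. Other genes were not free of this. The SD was 0.046 from the brighter and 0.13 from the other probe of Rps16. For Rpl10 it was 0.11 and 0.022.

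**Figure D4:**
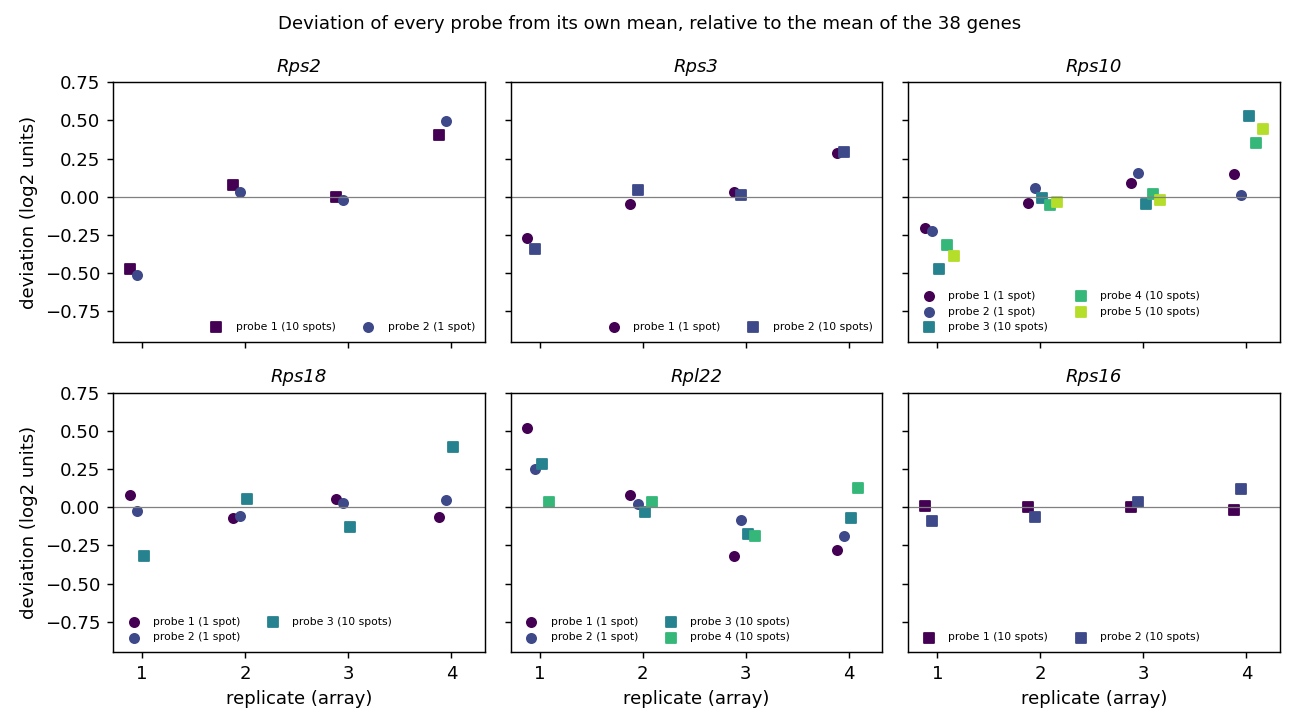
Log2 deviation of every probe from its own mean, relative to the mean of the 38 genes, by replicate, for 6 genes (squares are probes in 10 spots, circles in 1 spot, with probe 1 the brightest). Both probes of Rps2 and of Rps3 lie low on replicate 1 and high on replicate 4, whereas in Rps10, Rps18 and Rpl22 the probes lie apart on those arrays.

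The remaining cytosolic ribosomal protein genes were detected as widely. All 23 other large subunit genes and all 17 other small subunit genes with a probe passed on all 4 arrays, so that with the 38 described above 78 of 78 measured genes of 80 listed did. Rplp0, a protein of the ribosomal stalk, stood at 11.15, 11.17, 11.66 and 11.39. The median SD of the others was 0.17 in the large and 0.16 in the small subunit. Of 4 measured ribosomal protein paralogs 3 passed, Rpl22l1, Rps27l and Rpl39l1, the last looked up under its older name Rpl39l. The muscle paralog Rpl3l passed on 1 array.

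Genes that build or serve the ribosome gave a mixed picture against the background of 38.7%. All 15 elongation factors and other genes with 5′ TOP messages passed, with Eef1a1, which brings transfer RNA to the ribosome, at 9.19, 9.26, 9.23 and 9.19. Of 24 ribosome assembly genes 23 passed. Fbl, which methylates ribosomal RNA, stood at 6.69 ± 0.20 and nucleolin, Ncl, at 6.37 ± 0.21 (SD, n = 4 each), and Rrs1 passed on 3 of 4 arrays. Of 73 mitochondrial ribosomal protein genes 72 passed, all but Mrps14.

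Of 10 genes for RNA polymerase I and its factors, which transcribe ribosomal RNA, 5 passed, 3 passed on some arrays and 2 on none. Polr1c, a subunit shared with RNA polymerase III, stood at 6.42 ± 0.29 (SD, n = 4). Polr1a and Polr1b, the 2 largest subunits, passed on 2 and 1 of 4 arrays. Of 12 measured genes that control ribosomal protein translation 11 passed, and the exception was Mtor, on 1 of 4 arrays. A gene that does not pass has only an upper bound on its signal here.

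The cell type matched its label in part. Of 15 macrophage markers 12 passed on all 4 arrays, and Adgre1, Marco and Mrc1 did not. Of other markers 1 of 10 for lung epithelium, 4 of 8 for fibroblasts and endothelium, 1 of 11 for lymphocytes and granulocytes and 0 of 6 for liver and neuron passed. Between 21812 and 24981 spots per array were well above background, and the number of arrays limits the precision of every value. The median deviation of neighbouring spots, within 10 rows and columns, was taken around the brightest probe of each of the 38 genes. Averaged over the spots of that probe it was -0.17 to 0.19 log2 units, so none of these brightest probes lay on average in an area of strongly lowered signal. The other probes of these genes are not covered by this range.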

How the data were processed

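Expression was measured on 4 one-colour Agilent arrays, 1 group of 4 replicates by the labels. Per the file headers and the submitters' processing notes, the authors extracted them with Agilent Feature Extraction 11.0.1.1, and the deposited values are intensities per spot with flags coded 0 or 1. Control spots (4259 per array) and outlier spots (491 to 828 per array) were left out. Spots of a probe were averaged as log2 intensity, and the 75th percentile over all probes was subtracted per array. A probe passed when at least 0.5 of its spots were well above background. Probes were named by RefSeq accession without version (21109 with 1 symbol, 24489 with none, 0 with several, assembly GRCr8). The array design is on another build, so no probe coordinates are given, and start windows carry RefSeq's GRCr8 coordinates. A gene takes the level of its probe with the highest mean.

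SD is over 4 arrays. No p-value was computed. The members and lists were chosen with earlier results of these data known. Values in every array are given for genes of known role, for the 5 with the largest and 3 with the smallest SD per subunit and where probes disagreed. The level and SD computation was tested on simulated data. Analyses ran in Python 3.11.15 (numpy 2.4.6, pandas 2.3.3) and limma 3.58.1 in R 4.3.3. Alternatives were another flag, 3 of 4 arrays, all probes, outlier spots kept, other scalings, normexp with offset 50 on median signals, a local trend removed, and leaving out each replicate. Probes by number of spots, the step between replicates, the span of the subunit difference and the spread beside all genes by setting were added after seeing the data.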

Additional observations from a re-analysis of the deposited data

How the results depend on the processing

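The counts of 23 large and 15 small subunit genes detected were the same with all probes required and with outlier spots kept. They were also the same with the looser flag, with 3 of 4 arrays and without any 1 replicate. These last alternatives could not lower the counts, because every gene with a probe already passed on all 4 arrays. Spreads were called moved when they changed by over 1.5 times, and the steps from replicate 1 to replicate 4 when they changed by over 1 SD of the gene. Without scaling the median SD was 0.44 in the large and 0.38 in the small subunit, and the SDs of the subunit means were 0.40 and 0.36, where differences in array brightness remain by construction. With quantile normalization the SDs of the means were 0.13 and 0.11. With normexp the median SD of the large subunit was 0.30, the SDs of the means were 0.26 and 0.23 and the SD of the large minus small difference was 0.028. With probes in 10 spots the SD of the small subunit mean was 0.17 and that of the difference 0.17, and with probes in 1 spot the latter was 0.087. Leaving out each replicate gave 0.13 to 0.16 and 0.12 to 0.20 for the median SDs of large and small subunit, 0.034 to 0.064 and 0.029 to 0.072 for the SDs of the means and 0.029 to 0.057 for the difference. Of 386 values under alternatives, 84 moved by these measures. None of the steps moved, but they were picked as extremes and the SD of a gene grows with its step, so their measure was lenient. The step of Rpl22, whose SD was 0.39, was -0.41 with normexp and -0.42 with the mean of all probes in place of -0.80. By the measure used for spreads, the Rpl22 step would have moved in both settings. No scaling and the percentile over detected probes cannot change a step. The cause was not tested. No paired analysis was possible because the labels give 1 group. All arrays share 1 slide, so a slide term could not be fitted.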

Other observations

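Outside the 38, 3 genes of the translation machinery were singled out after their values were seen, so they show no pattern of that machinery. Relative to the mean of the 38 genes, Eef2, the factor that moves the ribosome along the message, deviated by -0.74, 0.01, 0.03 and 0.69 log2 units on replicates 1 to 4, from 1 probe. Rack1, a scaffold protein on the small subunit, deviated by -0.46, 0.01, 0.05 and 0.41, also from 1 probe. Both were low on replicate 1 and high on replicate 4. Tpt1, whose message also carries a 5′ TOP, went the other way, at 0.33 on replicate 1 and -0.23 on replicate 4. Each of the 38 genes and 4 group values was examined with Dixon's ratio for 1 array far from the rest, and 0 of these 42 passed its critical value, beside 4.8% of all detected genes. The nearest was Rps6, with a ratio of 0.828.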
